A study of Mus musculus with 34 samples.

Results

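The genes of the KIT axis and of the haematopoietic cytokine receptors were followed through single-cell RNA sequencing (mCEL-Seq2, a plate-based method that counts the 3′ ends of transcripts) of mouse ear skin. The list held 7 genes of 25853 in the count tables: *Kit*, its ligand gene *Kitl*, *Csf2rb*, *Csf2rb2*, *Il3ra*, *Il2rg* and *Epor*. They were chosen by name, with earlier results of these data known, and no measured value entered the choice. The tables held rows for 6 of them, and *Csf2rb2* was not analysed here. Levels are given as transcripts per 10000 transcripts of the cells summed, leaving out genes named Gm plus a number. Cells with over 1000 transcripts, Gm genes counted, were kept (2807 cells), so some had fewer than 1000 outside Gm genes. The study reported fewer mast cells past the same limit and set aside a small cluster with macrophage features. Cells with macrophage transcripts were kept here, so the cells are not the same set.

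Mast cells (MCs) came from untreated male mice, 7 weeks old, labelled C57BL/6J. By the study's methods these lines were on the albino form of that background and carried *Tyr* c-2J/c-2J. WT mice carried Mcpt5-Cre (Cre+/-) with 2 intact copies of *Tln1* and the R26LSLYFP reporter, and Tln1ΔMC mice carried Mcpt5-Cre, Tln1fl/fl and the same reporter, so that every MC donor expressed Cre and YFP. Mcpt5-Cre is active in connective tissue type MCs, and the cells were sorted as CD45+ Lin- YFP+, so cells without Cre activity are not represented. The 3 WT mice gave 338, 294 and 272 kept cells, and the 3 Tln1ΔMC mice 285, 354 and 934. The 330 Myh11-GFP cells came from untreated Myh11GFP/+ mice on the C57BL/6J background and were sorted as CD45- GFP+. Mice of the study were 7 to 12 weeks old, the number of these mice is not given in the sources used here, and they count as 1 sample of 4 libraries, with no test. The labels number the WT and Tln1ΔMC titles, and each number was read as 1 mouse.

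KIT is a receptor tyrosine kinase, and its ligand KITLG, made by stromal cells, drives MC growth, survival and maturation. *Csf2rb* encodes the β chain that the receptors for IL-3, IL-5 and GM-CSF share, *Csf2rb2* a closely related β chain that serves IL-3 in mice, and *Il3ra* the α chain that binds IL-3. *Il2rg* encodes the common γ chain of the IL-2, IL-4, IL-7, IL-9, IL-15 and IL-21 receptors, and *Epor* the erythropoietin receptor. The β and γ chains carry the signal to JAK kinases and STAT factors.

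In the GENCODE annotation of GRCm38, *Kit* lies on chromosome 5 from 75574916 to 75656722 and *Kitl* on chromosome 10 from 100015630 to 100100416, both on the plus strand. *Csf2rb* (chromosome 15, 78325752 to 78353847, plus strand) and *Csf2rb2* (chromosome 15, 78282507 to 78305721, minus strand) are neighbours. Of the 4851 windows of 50 bases in the longest *Csf2rb* transcript, 18.4% occur in a *Csf2rb2* transcript, but none of the 951 windows in its last 1000 bases does. *Il3ra* lies on chromosome 14 (14346275 to 14356011, plus strand), *Epor* on chromosome 9 (21958897 to 21963506, minus strand) and *Il2rg* on the X chromosome (101264378 to 101268255, minus strand).

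The promoters of *Kit* and *Kitl* are shown because the genes are the receptor and ligand that separate MCs from Myh11-GFP cells below. RefSeq lists a promoter for 6 of the 7 genes. Each sequence runs 5′ to 3′ on the gene's own strand from 250 bases before the transcription start to 50 bases after it, in GRCm38.p6. Capitals mark matches on either strand. The GATA factor motif was searched as GATAA. The E-box was searched as CANNTG. The GC box was searched as GGGCGG, and 2 of its matches in *Kitl* overlap. The TATA box was searched as TATAAA, and the CArG box is given by name.
Kit, chr5:75574737-75575036, plus strand: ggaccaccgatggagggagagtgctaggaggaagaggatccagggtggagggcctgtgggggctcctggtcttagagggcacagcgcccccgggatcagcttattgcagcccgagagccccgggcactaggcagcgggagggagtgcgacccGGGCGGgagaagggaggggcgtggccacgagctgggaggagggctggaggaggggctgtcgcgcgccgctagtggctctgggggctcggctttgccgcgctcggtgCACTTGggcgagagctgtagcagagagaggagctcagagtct
Kitl, chr10:100015571-100015870, plus strand: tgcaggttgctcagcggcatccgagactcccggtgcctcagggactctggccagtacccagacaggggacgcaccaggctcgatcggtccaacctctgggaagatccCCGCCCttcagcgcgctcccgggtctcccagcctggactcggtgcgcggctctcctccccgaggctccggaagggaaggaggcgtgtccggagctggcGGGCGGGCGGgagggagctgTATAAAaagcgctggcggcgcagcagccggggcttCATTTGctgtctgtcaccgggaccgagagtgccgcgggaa
The *Kit* window held 1 GC box and 1 E-box, and the *Kitl* window held 3 GC box matches, 1 TATA box match that begins 25 bases before the start and 1 E-box. Neither held GATAA or a CArG box. GC boxes occur in 35.7% of 32851 RefSeq promoters of the same length, TATA boxes in 13.6%, E-boxes in 72.3%, GATAA in 25.4% and CArG boxes in 1.63%. G and C made up 68.7% of the *Kitl* window and a slightly higher share of the *Kit* window, where the median promoter had 52.7%. A match describes letters only and is not evidence of binding.

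Some features of the libraries touch these genes. The mice differed in depth, from a median of 1889 transcripts per cell in WT mouse 3 to 4776 in Tln1ΔMC mouse 3, and Gm genes took 14.2% to 58.01% of the transcripts in MCs. The 10 MC marker genes summed to between 654 and 904 per 10000 in the 6 mice and to 0.194 in Myh11-GFP cells, of which *Kit* itself gave 0.167, and 6 of them were at 0 there. VSMC markers summed to 82.3 and pericyte markers to 130.8 in Myh11-GFP cells but fibroblast markers to 187.4, so this sort held cells of more than 1 type. In MCs, fibroblast markers ranged from 20.1 to 82.7 in WT mice and from 0.976 to 10.5 in Tln1ΔMC mice, and macrophage markers from 2.87 to 51.2 and from 1.56 to 9.51. Last, 5 barcodes of the MC libraries held 38293 to 399798 transcripts each, and the largest, in library 8 of Tln1ΔMC mouse 3, held 7.63% of that mouse's transcripts and 291 keratin marker transcripts per 10000. The very deep barcode in library 1 of WT mouse 2 held 3.34% of that mouse's transcripts and 2292 fibroblast marker transcripts per 10000. The one in library 2 of WT mouse 3 held 7.81% and 620. The ranges of fibroblast and macrophage markers above include these barcodes, so they do not describe typical MCs. Per 10000, *Tln1* itself was at 4.51, 5.92 and 6.71 in the WT group and 5.57, 4.33 and 3.63 in Tln1ΔMC mice, which overlap. The exons removed by Cre were not mapped to the counted 3′ ends, so this level does not check the deletion.

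*Kit*, the receptor gene, was high in MCs of every mouse and low, though detected, in the GFP+ cells. Its level per 10000 was 14.8 in WT mouse 1, 10.3 in mouse 2 and 9.80 in mouse 3. In Tln1ΔMC mice 1, 2 and 3 the levels were 15.3, 10.8 and 11.7. Both mice numbered 1 were above the other 4, and the genotypes overlapped. In Myh11-GFP cells *Kit* was at 0.167, from 24 transcripts, and at 0.167, 0.0551, 0.265 and 0.181 in the 4 libraries. The ratio of MCs over Myh11-GFP cells was 71.2 (95% interval 47.8 to 111.1, exact, counting error only).

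*Csf2rb*, the β chain gene, had levels of 14.3, 8.20 and 10.3 per 10000 in the 3 WT mice, in order of their numbers, against 18.2, 11.8 and 9.07 in Tln1ΔMC mice. As for *Kit*, the highest mouse of each genotype was the one numbered 1. In Myh11-GFP cells it was at 0.0764 from 11 transcripts, 138.1-fold lower than in MCs (77.2 to 277). *Il2rg*, the γ chain gene, had 5.34, 5.78 and 6.78 in WT and 6.82, 5.66 and 4.93 in Tln1ΔMC mice, and 0.0417 in Myh11-GFP cells from 6 transcripts, a ratio of 130.4 (59.9 to 355). Tln1ΔMC mouse 1 was the highest of the 6 mice here too, but WT mouse 1 was the lowest of its genotype.

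The α chain gene *Il3ra* stood at 0.682, 0.662 and 0.686 per 10000 in the WT group, which lay close together, and 0.397, 0.798 and 0.666 in Tln1ΔMC mice, from 31 to 349 transcripts per mouse. Myh11-GFP cells had 0.132, from 19 transcripts, and the ratio was 5.03 (3.19 to 8.40). *Epor* was close to the limit of detection. It had 3, 9 and 4 transcripts in WT mice, 3, 4 and 37 in Tln1ΔMC mice, or 0.034 to 0.0784 per 10000, and 0 in Myh11-GFP cells, where 3 transcripts would be 0.0208 per 10000. Against these 3 counts over the Myh11-GFP cells, the level in MCs summed was 2.91-fold higher, and the exact 95% interval of the ratio began at 2.29.

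*Kitl*, the ligand gene, showed the opposite pattern. Myh11-GFP cells had 365 transcripts, or 2.54 per 10000 (2.28 to 2.81), and their 4 libraries had 2.99, 2.07, 2.87 and 1.76. The 2477 MCs had 24 *Kitl* transcripts in 13 cells, and the mice lay between 0 and 0.0697 per 10000. Tln1ΔMC mouse 1 had 0 of 285 cells with *Kitl*. Of the 24 transcripts, 15 came from 4 of the 5 very deep barcodes. The ratio of Myh11-GFP cells over MCs was 104.6 (69.2 to 165.4) and rose to 260 when those barcodes were left out.

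Among 8569 genes with at least 100 transcripts in either cell population, 7.89% were at least 4-fold higher in all 6 mice than in Myh11-GFP cells and 5.73% at least 4-fold lower. *Kit*, *Csf2rb* and *Il2rg* were in the first set and *Kitl* in the second. *Il3ra* was in neither, since Tln1ΔMC mouse 1 was 3.01-fold above Myh11-GFP cells. *Epor* had too few transcripts for this count. In bulk sums of this kind, fewer cells with a transcript and less RNA per cell cannot be told apart.

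**Figure D1:**
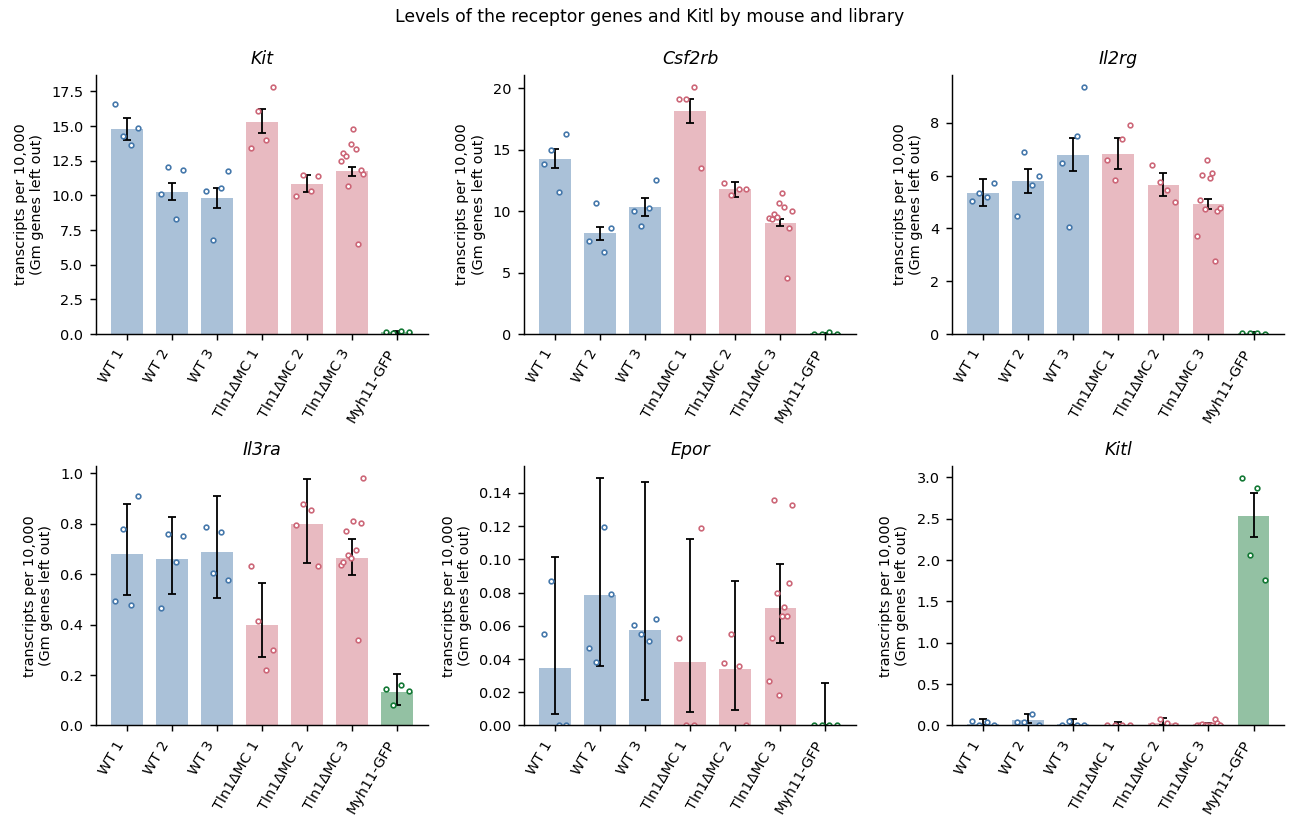
Transcripts per 10000 (Gm genes left out) of 6 genes in 6 mice and in Myh11-GFP cells. Bars give the summed cells with exact 95% Poisson intervals for counting error, and open points the single libraries. *Kit*, *Csf2rb* and *Il2rg* are high in the MC samples, where *Kit* lies between 9.80 and 15.3, *Il3ra* lies between 0.397 and 0.798 there, and *Kitl* is high in Myh11-GFP cells at 2.54.

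The share of cells in which each gene was seen was compared after drawing 1000 UMIs (unique molecular identifiers, one per captured molecule) from every cell, which left out 282 of 2477 MCs and 23 of 330 Myh11-GFP cells as too shallow. *Kit* was seen in 63.5% of MCs (exact binomial 95% interval 61.5 to 65.5), *Csf2rb* in 55.2% (53.1 to 57.3), *Il2rg* in 41.1% (39.03 to 43.2), *Il3ra* in 7.06% (6.02 to 8.21) and *Epor* in 0.866% (0.522 to 1.35). In Myh11-GFP cells the same shares were 1.63%, 0.977%, 0.326%, 1.30% and 0, in 0 of 307 cells. *Kitl* was seen in 21.2% of Myh11-GFP cells (16.7 to 26.2) and in 2 of 2195 MCs. Without thinning, *Kit* was seen in 78.8% of MCs, *Csf2rb* in 75.9%, *Il2rg* in 71.3%, *Il3ra* in 21.2% and *Epor* in 2.30%, and *Kitl* in 49.4% of Myh11-GFP cells. With Gm genes counted, the medians were 5018 UMIs per MC and 4516 per Myh11-GFP cell. Outside Gm genes, the median was 3915 transcripts in Myh11-GFP cells and 1889 to 4776 in the MCs of a mouse.

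Across mice the thinned share of *Kit* ran from 56.4% in Tln1ΔMC mouse 2 to 68.8% in Tln1ΔMC mouse 1, and that of *Csf2rb* from 51.5% in WT mouse 2 to 60.8% in Tln1ΔMC mouse 1. For *Kit*, the interval of Tln1ΔMC mouse 2 (50.8% to 61.9%) lay below those of Tln1ΔMC mice 1 (62.5% to 74.6%) and 3 (64.6% to 70.7%), so mice of 1 genotype differed beyond counting error. *Csf2rb* was seen about as often in cells with a *Kit* UMI as in those without: 59.5% and 57.9% in WT mouse 1, 51.7% and 51.4% in WT mouse 2, 60.6% and 61.3% in Tln1ΔMC mouse 1, 52.5% and 57.1% in Tln1ΔMC mouse 2 and 55.2% and 50.0% in Tln1ΔMC mouse 3. WT mouse 3 stood apart with 64.9% and 47.6%. Between 5.83% and 13.8% of thinned MCs showed none of *Kit*, *Csf2rb* and *Il2rg*.

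**Figure D2:**
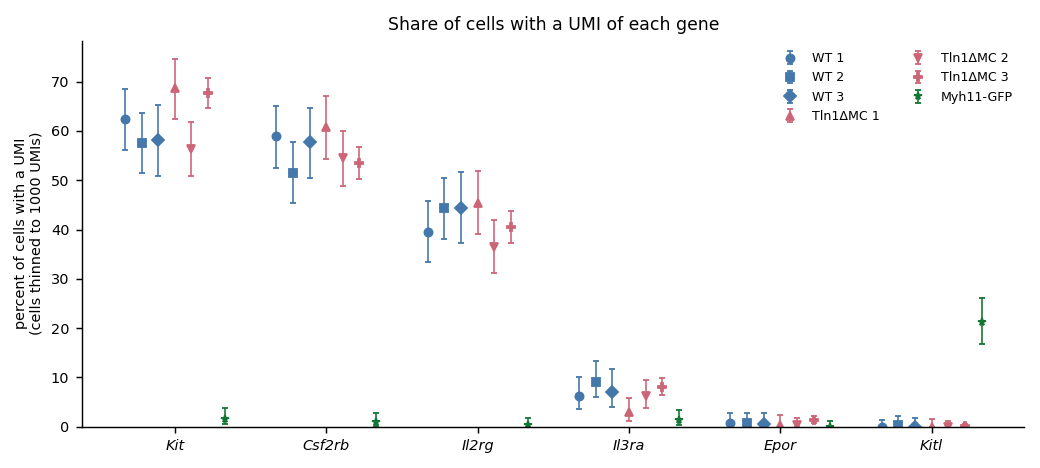
Percent of cells, thinned to 1000 UMIs each, with at least 1 UMI of each gene, for 6 mice and Myh11-GFP cells, with exact 95% binomial intervals. *Kit* is seen in 56.4% to 68.8% of the MCs of a mouse and in 1.63% of Myh11-GFP cells.

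Whether talin-1 loss altered these receptors was tested with limma on transcripts summed per mouse. Of 8601 genes, 0.0% were called at an adjusted p under 0.05 in either direction, and 502 (5.84%) had an unadjusted p under 0.05 (with voom weights, 2 genes were called lower). None of the 4 tested receptor genes was called. *Kit* was 11.6 ± 2.74 per 10000 in WT and 12.6 ± 2.37 in Tln1ΔMC mice (SD, n = 3 each), with a log2 fold change of 0.16 (SE 0.21, limma adjusted p = 0.928) and a 95% interval from 0.803-fold to 1.56-fold. *Csf2rb* was 10.9 ± 3.08 and 13 ± 4.66, with a log2 fold change of 0.26 (SE 0.29, limma adjusted p = 0.904), and its interval ran from 0.768-fold to 1.87-fold.

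*Il2rg* was 5.97 ± 0.738 per 10000 in WT and 5.80 ± 0.954 in Tln1ΔMC mice, with a log2 fold change of −0.01 (limma adjusted p = 0.992, interval 0.715-fold to 1.37-fold). *Il3ra* was 0.677 ± 0.0128 and 0.621 ± 0.204, with a log2 fold change of −0.15 (limma adjusted p = 0.957, interval 0.589-fold to 1.38-fold). Exact two-sided permutation tests of the mice gave p = 0.5 for *Kit*, 0.6 for *Csf2rb* and 0.8 for *Il2rg* and *Il3ra*, where 3 mice against 3 cannot go below 0.1. The levels of each of these 4 genes overlapped between the genotypes. Levels without overlap were found in 5.34% of genes with Tln1ΔMC mice higher and in 6.31% with them lower. These values moved when Tln1ΔMC mouse 1 alone was left out: the log2 fold changes were then 0.02 for *Kit*, −0.003 for *Csf2rb* and 0.15 for *Il3ra*. Without both mice numbered 1 they were 0.17 for *Kit*, 0.17 for *Csf2rb* and 0.12 for *Il3ra*. Leaving out each mouse in turn gave 0.02 to 0.30 for *Kit*. *Epor* and *Kitl* did not reach 10 transcripts in 3 mice and were not tested. On sums over cells, the intervals leave room for changes of under 2-fold in either direction.

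The genes around the receptors were counted in 6 lists. Of 15 receptor partners, 7 were tested and none was called. *Il7r* (α chain of the IL-7 receptor) had 1.09 ± 0.186 per 10000 over the 6 mice (SD) and a log2 fold change of −0.16, and *Il4ra* (α chain of the IL-4 receptor) 0.909 ± 0.161 and −0.22. The list's median was −0.22 against −0.002 for all genes. *Csf2ra*, the α chain of the GM-CSF receptor and a partner of *Csf2rb*, was lower in every Tln1ΔMC mouse, at 0.52, 0.776 and 0.701 per 10000 in the WT group against 0.487, 0.348 and 0.336. Levels without overlap and lower in Tln1ΔMC mice were found in 6.31% of all genes tested. The log2 fold change of *Csf2ra* was −0.72 (SE 0.26, limma adjusted p = 0.715), and it was singled out after its values were seen. The lowest value, −2.39, belonged to *Csf1r*, which is also in the macrophage marker list, and stood at 0.881 and 1.18 per 10000 in WT mice 2 and 3 and between 0.0385 and 0.178 in the other 4 mice. These WT mice also had the highest macrophage marker levels and the highest *Csf2ra* levels. The part of macrophage transcripts in the values of *Csf1r* and *Csf2ra* was not tested. *Csf2ra*, *Il5ra* and *Il7r* were at least 4-fold above Myh11-GFP cells in all mice, and *Il13ra1* at least 4-fold below.

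Of 16 ligand genes, 15 had rows, 7 were tested and none was called (median 0.11). *Csf1*, the macrophage growth factor, had 5.99 ± 1.55 per 10000 and a log2 fold change of 0.08, and *Il13* 4.31 ± 2.09 and 0.59 (SE 0.38). *Il13*, *Il4* and *Csf2*, cytokines that MCs are known to make, were at least 4-fold above Myh11-GFP cells, where each had 0 transcripts, and *Tslp* was below. Of 24 genes that relay the KIT signal, 23 were tested, with none called (median −0.03, range −0.79 to 0.39). The adaptor gene *Grb2* had 5.11 ± 1.46 per 10000 and a log2 fold change of −0.44, and the kinase gene *Fyn* 2.14 ± 0.215 and 0.21. *Grb2*, *Pik3cd*, *Plcg2*, *Lyn* and *Btk* were at least 4-fold above Myh11-GFP cells.

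Among 20 genes that restrain KIT and cytokine receptors, 17 were tested and none was called (median 0.09). *Socs2*, a STAT5 target that dampens cytokine signals, had 14.6 ± 3.58 per 10000 and a log2 fold change of 0.04, and the phosphatase gene *Inpp5d* 3.17 ± 0.385 and 0.09. *Socs2*, *Cish*, *Ptpn6* and *Inpp5d* were at least 4-fold above Myh11-GFP cells, and *Socs3* and *Spry1* at least 4-fold below. Of 9 JAK and STAT genes, 8 were tested, with none called (median 0.11) and none 4-fold apart between the populations. *Jak1* had 3.97 ± 0.548 and a log2 fold change of 0.004, and *Stat3* 1.73 ± 0.211 and 0.12. Of 16 survival and lineage genes, 13 were tested and none was called (median −0.08). *Gata2*, a factor needed for MC identity, had 22.9 ± 5.64 and a log2 fold change of 0.33 (SE 0.25), and the survival gene *Mcl1* 12.7 ± 1.72 and −0.08. *Gata2*, *Gata1*, *Tal1* and *Mitf* were at least 4-fold above Myh11-GFP cells. Genes named here as 4-fold apart were picked after their values were seen.

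**Figure D3:**
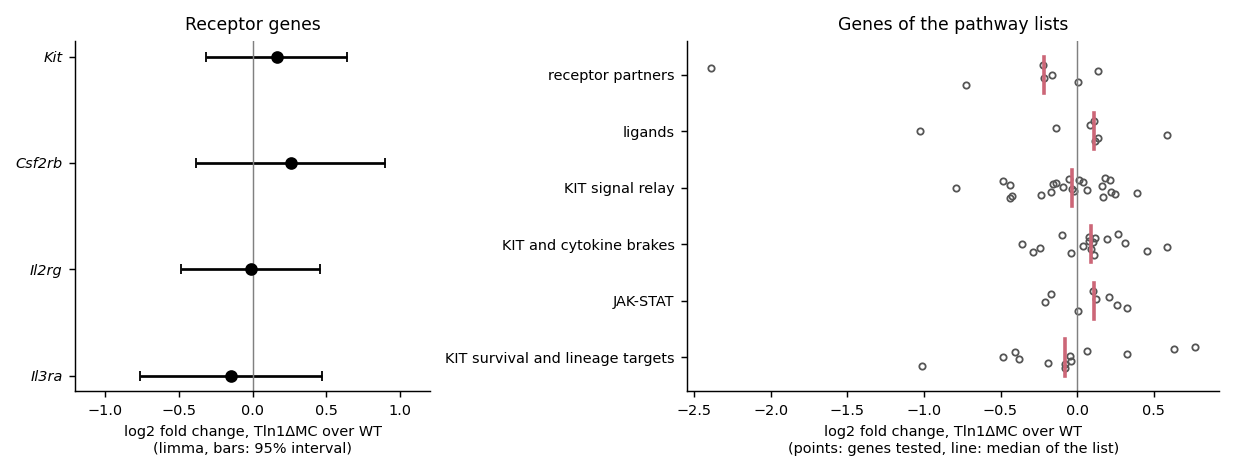
Log2 fold change of Tln1ΔMC over WT mice from limma (n = 3 mice each). The left panel gives the receptor genes with 95% intervals, all of which include 0, and the right panel each tested gene of the 6 lists (points) with the median of the list (line). The medians lie between −0.22 and 0.11.

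The receptors were then followed among MCs of one mouse. The cells of each mouse were ranked by the summed level of a gene list and cut into 3 groups of equal size, and the high group was compared with the low group. Immediate early genes (*Fos*, *Jun*, *Egr1* and 7 others) respond within minutes to stimulation, including that of tissue digestion. *Csf2rb* was lower in the high group in 6 of 6 mice. It went from 20.5 to 9.22 per 10000 in WT mouse 1, from 10.1 to 6.87 in WT mouse 2 and from 16.1 to 6.58 in WT mouse 3. In Tln1ΔMC mice 1, 2 and 3 it went from 19.9 to 14.3, from 14.1 to 7.36 and from 10.2 to 6.14. The mean log2 ratio was −0.85 ± 0.33 (SD, n = 6, exact two-sided sign-flip p = 0.031, the smallest that 6 mice can give). Lower in all 6 mice were 5.35% of 8591 genes and higher 5.55%.

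*Kit* was higher in the same high group in 6 of 6 mice, at 13.9 ± 2.48 against 11.0 ± 1.81 per 10000, a mean log2 ratio of 0.33 ± 0.18 (exact sign-flip p = 0.031). The log2 ratio of *Csf2rb* was therefore below that of *Kit* in every mouse, by 0.69 to 1.74, a comparison within the same cells that was chosen after the values were seen. *Il2rg* (mean log2 ratio −0.04, higher in 2 of 6 mice) and *Il3ra* (−0.04, higher in 4 of 6) showed no common direction. No gene could pass adjustment of the exact p over all genes. In limma on the 6 log2 ratios, *Csf2rb* had an adjusted p of 0.0216 and *Kit* of 0.284, where 1.69% of 8591 genes were called higher and 0.908% lower. The low group held more macrophage transcripts in 6 of 6 mice and a larger share of Gm genes in 5, and with Gm genes in the total the *Csf2rb* ratio turned to 0.34. Its exact sign-flip p was then 0.1875. The cells were also ranked anew on that total. That scaling moved the median of all genes from −0.04 to 0.51, and *Csf2rb* stayed below that median. With Gm genes left out, *Gata2* had a mean log2 ratio of 0.67 and was higher in 6 of 6 mice, but the other MC marker genes were mixed. *Hdc* (0.25), *Cpa3* (0.18) and *Ms4a2* (0.08) were higher in 5 of 6 mice. *Tpsb2* (0.13), *Fcer1a* (0.04) and *Mcpt4* (−0.004) were higher in 4, *Cma1* (−0.09) in 3 and *Tpsab1* (−0.47) in 1.

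Ranked by protease genes (*Cma1*, *Mcpt4*, *Tpsb2* and *Cpa3*), which accumulate as connective tissue MCs mature, the cells of the high group had more *Kit*. It went from 8.99 to 18.7 per 10000 in WT mouse 1, from 6.99 to 14.1 in WT mouse 2 and from 7.32 to 10.7 in WT mouse 3. In Tln1ΔMC mice 1, 2 and 3 it went from 11.5 to 16.4, from 6.49 to 13 and from 8.01 to 13.8. The mean log2 ratio was 0.81 ± 0.24 (higher in 6 of 6 mice, exact sign-flip p = 0.031), and 9.29% of 8597 genes were higher and 6.63% lower in all 6 mice. In limma over all genes its adjusted p was 0.0195, where 2.44% of genes were called higher and 4.76% lower. With cells thinned to 1000 UMIs the ratio was 0.60 and the exact p 0.0625.

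*Il2rg* (0.35 ± 0.16) and *Il3ra* (0.55 ± 0.29) were also higher in 6 of 6 mice along the protease genes (exact sign-flip p = 0.031 each), with limma adjusted p of 0.20 and 0.0725. Without the 5 very deep barcodes these ratios were 0.18 for *Il2rg* and 0.35 for *Il3ra*, with exact sign-flip p = 0.125 and 0.0938, and the *Il3ra* ratio was 0.05 in thinned cells. *Csf2rb* was higher in 3 and lower in 3 mice (−0.16 ± 0.45), and its log2 ratio lay below that of *Kit* by 0.48 to 1.60 in every mouse. Without the 5 very deep barcodes *Csf2rb* had a ratio of −0.36 (exact sign-flip p = 0.031). The low group was shallower in all 6 mice and held more Gm, macrophage and keratin transcripts in all 6, with macrophage markers of 3.37 to 111.2 per 10000 against 1.03 to 13.5. Other MC genes moved the same way, *Ms4a2* by 0.74, *Gata2* by 0.61 and *Fcer1a* by 1.82, each in 6 of 6 mice. *Tpsab1* (0.52 ± 0.46) and *Hdc* (0.15 ± 0.30) were higher in 5 of 6. The *Kit* ratio was 0.62 without cells with macrophage transcripts.

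The last list, *Arl4c*, *Sla* and *Lgals1*, came from an earlier grouping of these same cells, so its values are a description with no test. *Csf2rb* had the widest change of the receptor genes. In the low and high groups it was 7.35 and 19.8 per 10000 in WT mouse 1, 4.23 and 11.1 in WT mouse 2 and 5.17 and 16.8 in WT mouse 3. In Tln1ΔMC mice 1, 2 and 3 it was 10.7 and 24.1, 5.68 and 15.7, and 5.06 and 13.1. The high group was above the low group by 2.23-fold to 3.21-fold in every mouse (mean log2 ratio 1.41 ± 0.17), a value above that of 99.9% of 8598 genes, of which 9.82% were higher in all 6 mice. *Il2rg* (0.61 ± 0.26) and *Kit* (0.42 ± 0.24) were higher in 6 of 6 mice as well, and *Il3ra* (0.24 ± 0.52) in 4.

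Of 9 other MC genes 7 were also higher in the *Arl4c* high group of every mouse, such as *Hdc* by 0.55 and *Mcpt4* by 0.45, but *Gata2* by 0.06 in 4 of 6. The low group was shallower and held more Gm, macrophage and keratin transcripts in all 6 mice. The *Csf2rb* ratio was 0.92 in thinned cells and 1.26 without cells with macrophage transcripts, and the *Kit* ratio was 0.09 in thinned cells. The *Csf2rb* log2 ratio exceeded that of *Kit* by 0.79 to 1.28 in every mouse. Along the immediate early and protease genes, exact permutation tests of the ratios between genotypes gave p from 0.3 to 0.8 (smallest possible 0.1).

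**Figure D4:**
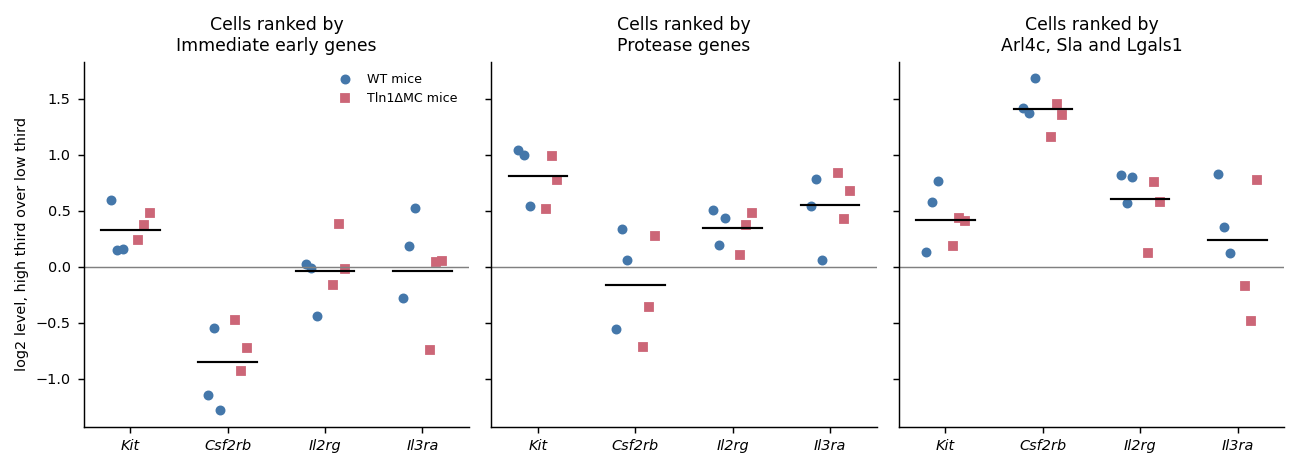
Log2 ratio of the high over the low group of MCs in each mouse (circles WT, squares Tln1ΔMC), for cells ranked by immediate early genes, protease genes or *Arl4c*, *Sla* and *Lgals1*, with the mean of 6 mice as a line. *Csf2rb* lies below 0 in all mice in the first panel and at or above 1.16 in all mice in the last, and *Kit* lies above 0 in all 3 panels.

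Over the 30 MC libraries, with each mouse's mean taken out, the levels of the receptor genes were set against one another and against other genes. These points share differences in depth and in cell type make-up, and the values are descriptions. The very deep barcodes were kept, and they lower several of these genes at once. In library 8 of Tln1ΔMC mouse 3, *Kit* was at 6.48 per 10000 with them and 13.2 without. There *Csf2rb* was at 4.61 and 9.37, and *Il2rg* at 2.75 and 5.50. Correlations without these barcodes are not given. *Kit* was most like *Gata2* (Pearson r = 0.92), *Cpa3* (0.90) and *Mrgprb1* (0.89), an MC receptor gene. *Csf2rb* was most like *Plek* (0.87), *Hdc* (0.86), which encodes the histamine-forming enzyme, and *Csrnp1* (0.86). *Il2rg* was most like *Ago2* (0.83), *Gstm1* (0.81) and *Slc29a1* (0.78), and *Il3ra* most like *Ftl1* (0.75), *Tcf25* (0.74) and *Kdm6b* (0.74). Between the receptor genes, r was 0.72 for *Kit* and *Csf2rb*, 0.76 for *Kit* and *Il2rg* and 0.67 for *Csf2rb* and *Il2rg*.

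For the ligand, the question was which GFP+ cells hold *Kitl*. Myh11-GFP cells were ranked within each library, and cut into 3 groups of equal size, by the level of *Acta2* (smooth muscle actin), *Myh11* (smooth muscle myosin) or *Rgs5* (a pericyte marker), and *Kitl* was summed in each group. Along *Myh11* it was 1.52 per 10000 (1.204 to 1.90) in the low, 2.45 (2.03 to 2.95) in the middle and 3.75 (3.21 to 4.35) in the high group. The high group was above the low group by 2.46-fold (95% interval 1.87 to 3.26). Along *Rgs5* the groups had 1.40 (1.07 to 1.79), 2.55 (2.11 to 3.04) and 3.52 (3.02 to 4.07), a ratio of 2.52 (1.88 to 3.41). Along *Acta2* they had 1.95 (1.60 to 2.36), 2.89 (2.41 to 3.43) and 2.90 (2.42 to 3.43), a ratio of 1.49 (1.142 to 1.94), with no step from the middle to the high group.

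The high group was above the low group in 4 of 4 libraries for each marker. Library by library, the low and high groups of *Rgs5* had 1.82 and 3.39, 1.07 and 3.45, 1.85 and 4.13, and 0.389 and 2.87 per 10000 in the 4 libraries, the last from 3 transcripts in the low group. Along *Acta2* they had 2.50 and 3.69, 1.80 and 2.48, 2.08 and 2.31, and 0.746 and 2.85. The values of 2.08 and 2.31, from library 15, rested on 29 and 28 transcripts, and the middle group there had 4.40. The rank correlation across the 330 cells was weak for all 3 markers (Spearman rho 0.12 for *Acta2*, 0.20 for *Myh11* and 0.25 for *Rgs5*). No *Acta2* UMI was seen in 26 cells, no *Myh11* UMI in 58 and no *Rgs5* UMI in 15.

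Fibroblast transcripts were concentrated in the low groups, and in 78 of the 330 cells they made up at least 1% of the transcripts. The fibroblast marker list stood at 395, 380 and 443 per 10000 in the low groups of *Acta2*, *Myh11* and *Rgs5* and at 55.03, 40.6 and 67.1 in the high groups. Depth differed too, with medians of 2691 transcripts per cell in the low and 4246 in the high *Rgs5* group. When cells with at least 1% fibroblast marker transcripts were left out, an alternative chosen after the data were seen, the ratio was 1.72 along *Myh11*, 2.03 along *Rgs5* and 1.25 along *Acta2*. With cells thinned to 1000 UMIs, the ratios were 1.77 along *Myh11*, 1.61 along *Rgs5* and 0.976 along *Acta2*, where the direction turned.

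Crossing the markers, with the cells of each library cut at the median, gave the highest *Kitl* where *Myh11* and *Rgs5* were both high, 4.09 per 10000 (3.48 to 4.79) in 83 cells, and the lowest where both were low, 1.05 (0.753 to 1.42) in 85 cells. Cells high in only *Myh11* had 2.48 (1.96 to 3.11) and cells high in only *Rgs5* 2.53 (2.04 to 3.11). For *Acta2* and *Rgs5*, cells high in both had 3.19 (2.64 to 3.83), cells high in only *Rgs5* 3.48 (2.91 to 4.13), cells high in only *Acta2* 2.33 (1.83 to 2.93) and cells low in both 1.13 (0.82 to 1.53). The group low in both markers again had the highest fibroblast level of the 4 groups, with 520 fibroblast marker transcripts per 10000 in the *Myh11* and 533 in the *Acta2* crossing. Cells high in both *Myh11* and *Rgs5* had 48.1. Their median depth was 4251 transcripts, against 3132 in cells low in both. The crossing is not given for thinned cells or without fibroblast-rich cells.

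The genes whose thinned counts ranked most like *Kitl* across 307 Myh11-GFP cells were *Noct* (Spearman rho 0.23), *Pcp4l1* (0.21), *Mef2c* (0.21), *Impdh2* (0.21) and *Cdkn1b* (0.20). All of these correlations are weak, and sparse counts limit them.

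**Figure D5:**
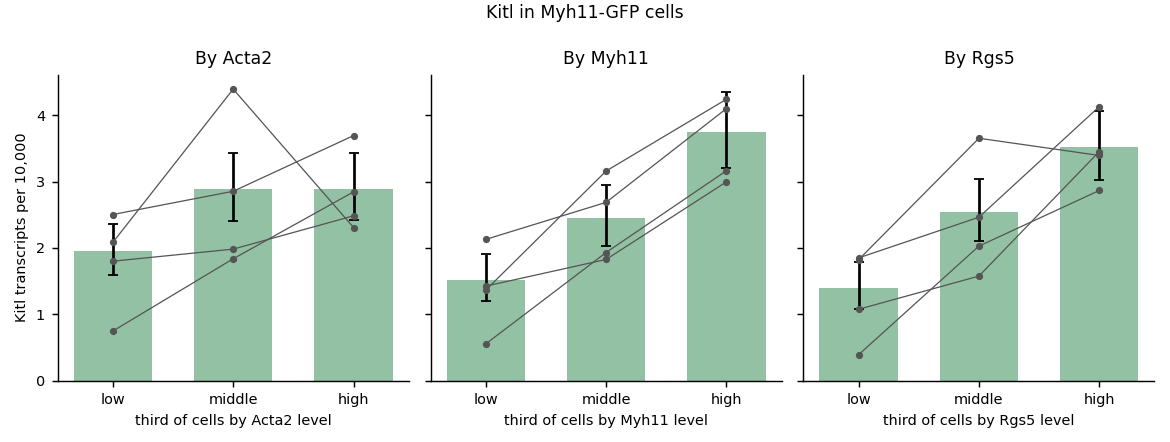
*Kitl* transcripts per 10000 in the low, middle and high group of Myh11-GFP cells ranked within library by *Acta2*, *Myh11* or *Rgs5*. Bars give the summed cells with exact 95% Poisson intervals and lines the 4 libraries. *Kitl* goes from 1.52 to 3.75 along *Myh11*, from 1.40 to 3.52 along *Rgs5* and from 1.95 to 2.90 along *Acta2*.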

How the data were processed

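Single cells from 30 MC and 4 Myh11-GFP libraries were measured by mCEL-Seq2. The authors deposited estimated transcript counts per gene and barcode, that is UMI counts corrected for collisions among 4096 possible UMIs, a unit recorded as other since the values are not whole. Per the submitters' processing notes, reads were aligned with BWA 0.6.2-r126 to mm10 after bcl2fastq 2.17.1.14, and the authors dropped reads that map to several loci. Cells with over 1000 transcripts, Gm genes counted, and at most 2% *Kcnq1ot1* were kept (the second limit removed 0 cells), and no doublet caller was run. Library totals ran from 309012 to 964834 transcripts for MCs and from 297694 to 592647 for Myh11-GFP cells. All 34 libraries use the same 192 barcodes by design, of which a set of 96 is in use per library.

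Transcripts were summed per mouse without Gm genes, scaled by TMM (trimmed mean of M values), and log2(per 1000000 + 1) was tested with limma 3.58.1 (trend) in R 4.3.3, for genes with at least 10 transcripts in 3 mice, with Benjamini-Hochberg adjustment over all genes tested. Fold changes on this scale understate changes of low genes. High and low groups of ranked cells were compared with exact sign-flip tests over 6 mice, with 0.1 per 10000 added. The planned adjustment over the comparisons of the listed genes was replaced by limma over all genes. Python 3.11.15 and scipy 1.17.1 were used, and the tests were tried on simulated data. Intervals cover counting error only. No pair of libraries within a mouse or within the Myh11-GFP cells agreed within sampling noise (81 pairs). Nothing in the labels says how mice were processed into replicates beyond their numbers, so p-values measure the spread between these samples.

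The genes and lists were chosen with earlier results of these data known. Named were all 7 genes, the 2 tested genes of each list with the highest mean level, any gene called, and the genes most like each by correlation (3 over libraries, 5 for *Kitl* over cells). Marker lists for endothelial cells, lymphocytes and red cells reached at most 0.141, 0.849 and 15.5 per 10000 in a mouse and 0.382, 0.0695 and 0.0694 in Myh11-GFP cells. Alternatives covered scaling, filters, pseudocounts, cells, libraries, mice and the replicate block.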

Additional observations from a re-analysis of the deposited data

Results flagged for a closer look

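The levels of 1 receptor gene over the 4 to 10 libraries of 1 mouse, or of *Kitl* over the Myh11-GFP libraries, formed 25 sets. Of these, 3 held a library far from the others, where chance alone gives about 1 in 20. Sets of 1 mouse share their libraries, so they are not independent. In library 8 of Tln1ΔMC mouse 3, *Kit* was at 6.48 per 10000 and *Csf2rb* at 4.61, the lowest of 10 libraries. This library held 2 of the very deep barcodes, and without them the levels were 13.2 and 9.37. In library 4 of Tln1ΔMC mouse 1, *Csf2rb* was at 13.5 per 10000, below the other 3 libraries of that mouse.

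Barcodes of the set that was not in use in a library also held transcripts of these genes, data that no comparison used apart from 17 such barcodes that passed the limit on transcripts. Of the 2880 in the MC libraries, 7.85% had a UMI of *Kit*, 6.18% of *Csf2rb*, 12.1% of *Il2rg* and 0.312% of *Il3ra*. Of the 384 in the Myh11-GFP libraries, 1.04% had a UMI of *Kitl*, 4 UMIs in all. Per barcode, *Kit* had 0.0833 UMIs there against 4.76 in kept MCs, and *Il2rg* 0.129 against 2.18.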

How the results depend on the processing

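The tests that need whole counts (edgeR and DESeq2) were not run, since the deposited values are estimates. Between genotypes, leaving out 1 mouse at a time gave log2 fold changes of 0.02 to 0.30 for *Kit*, −0.00294 to 0.514 for *Csf2rb*, −0.39 to 0.15 for *Il3ra* and −0.14 to 0.12 for *Il2rg*. *Il3ra* turned to 0.12 without both mice numbered 1, where *Kit* was at 0.17, *Csf2rb* at 0.17 and *Il2rg* at −0.24. With genes of at least 1 transcript in 1 mouse, *Il2rg* turned to 0.00557. Genes called lower numbered 2 with voom weights, 7 without both mice numbered 1, 12 without Tln1ΔMC mouse 1 and 1 without WT mouse 1, a range of 0 to 12. The WT and Tln1ΔMC mice numbered 1 each deviated most like the other, though weakly (correlation 0.16). Those numbered 2 and 3 did not (−0.23 and −0.31), so the numbers were not taken to pair the mice. The study's methods call the controls littermates, but which mice shared a litter is not given in the sources used here. With the replicate block, *Kit* had a log2 fold change of 0.16, 0 genes were called and 437 had an unadjusted p under 0.05.

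Gm genes were also put into the total, on which the cells were then ranked anew. The median of all genes moved to 0.51 (immediate early), 0.78 (protease) and 0.68 (*Arl4c* list), from −0.04, 0.04 and 0.05. Under that scaling *Csf2rb* turned to 0.34 (immediate early) and 1.60 (protease), and *Il3ra* and *Il2rg* to 0.52 and 0.96 (immediate early). Along the *Arl4c* list it moved *Kit* to 1.77, *Csf2rb* to 2.26, *Il3ra* to 0.95 and *Il2rg* to 1.63. With 2 groups of cells in place of 3, the immediate early ratios of *Il3ra* and *Il2rg* turned to 0.0914 and 0.0606, and the *Arl4c* ratio of *Csf2rb* was 0.97. In thinned cells *Il3ra* turned to 0.0467 (immediate early), and along the *Arl4c* list *Kit* was 0.0934 and *Csf2rb* 0.92. Without the very deep barcodes that *Csf2rb* ratio was 1.21. Leaving out 1 mouse at a time gave −0.15 to 0.10 for *Il3ra* and −0.124 to 0.0408 for *Il2rg* (immediate early). limma over all genes called *Csf2rb* (immediate early, −0.85) and *Kit* (protease, 0.81), which the exact test could not, where it called 1.69% of genes higher and 0.908% lower, and 2.44% higher and 4.76% lower. The cause of these shifts was not tested.

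The *Kitl* ratio of groups in thinned cells was 0.976 along *Acta2*, 1.77 along *Myh11* and 1.61 along *Rgs5*, and 1.72 along *Myh11*, 2.03 along *Rgs5* and 1.25 along *Acta2* without cells with fibroblast transcripts. The ratio of Myh11-GFP cells over MCs was 260 without the very deep barcodes. Asking for at least 2 UMIs gave shares of 33.7% for *Kit*, 26.4% for *Csf2rb*, 11.8% for *Il2rg* and 0.273% for *Il3ra* in MCs and 1.95% for *Kitl* in Myh11-GFP cells. Depth limits what can be said of *Kitl*, *Epor* and *Il3ra* in MCs, with 24, 60 and 657 transcripts.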
